A study of Rattus norvegicus with 21 samples.

Results

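The transcripts described here are those of 8 rat genes of antioxidant defence: the transcription factor gene Nfe2l2, and Hmox1, Nqo1, Gclc, Gclm, Sod1, Sod2 and Cat. They were chosen by Ensembl identifier from the 26404 genes counted in renal cortex, and each lies on the chromosome given with its symbol. All 8 genes were present, and all 8 passed the filter on low counts that left 14664 genes for testing.

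RNA-seq was performed on renal cortex from rats aged 37 weeks, with ribosomal RNA removed and strand retained. Sprague Dawley (SD) rats were the healthy control group (n=6). SHAM rats were Zucker Diabetic Sprague Dawley (ZDSD) rats that underwent sham surgery (n=7 used of 9 deposited). DMT rats (n=6, labelled Medical bypass) were also sham-operated ZDSD rats, and received a restricted diet together with ramipril, metformin, liraglutide, rosuvastatin and fenofibrate. All rats were male. Hence DMT vs SHAM compares treatment within one strain, whereas strain, diabetes and sham surgery cannot be told apart in either comparison with SD rats. The paper describes that surgery, with insulin beforehand and an antibiotic, for SHAM and DMT rats only. DMT vs SD also differs by the restricted diet and the drugs. Per the labels, SD and SHAM samples are re-analyses of an earlier deposit, which is not said of DMT samples. Library batches are not stated. Total counts in the 19 rats ranged from 14502127 to 27597901, at which 3 counts equal 0.109 to 0.207 counts per 1000000 (CPM). SHAM rats 343 and 348 had 121511 and 101534 counts and were left out.

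Nfe2l2 encodes Nrf2, a transcription factor that is held at a low level by Keap1 until oxidants or electrophiles disrupt that interaction. It then binds antioxidant response elements with small Maf proteins and raises transcription of detoxifying and glutathione-forming enzymes. Since Nrf2 is controlled largely through the stability of its protein, the level of its mRNA is not a measure of its activity. The renal cortex consists largely of proximal tubule, which relies on mitochondrial and peroxisomal oxidation and holds much superoxide dismutase, catalase and glutathione. In bulk tissue, fewer cells of a type and less RNA per cell cannot be told apart. Marker genes of renal cell types were not analysed here, so the labelled tissue was not checked against them.

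Between DMT and SHAM rats, 0 of the 8 genes were called, and DESeq2 also called 0 of the 7 to which it gave an adjusted p. Relative to SD rats, 3 were lower in SHAM rats (Hmox1, Sod1 and Cat) and 4 were lower in DMT rats (Hmox1, Nqo1, Gclc and Sod1), while 0 were higher in either. A gene was called when its adjusted p-value in edgeR's quasi-likelihood test was under 0.05 and its fold-change was at least 1.3. Across all 14664 genes tested, 11.5% were called in either direction in DMT vs SHAM. Lower levels were called for 7.95% in SHAM vs SD and for 10.2% in DMT vs SD. The Hmox1 calls rest on 1 SD rat, as described for that gene. Both comparisons with SD use the same 6 control rats.

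**Figure D1:**
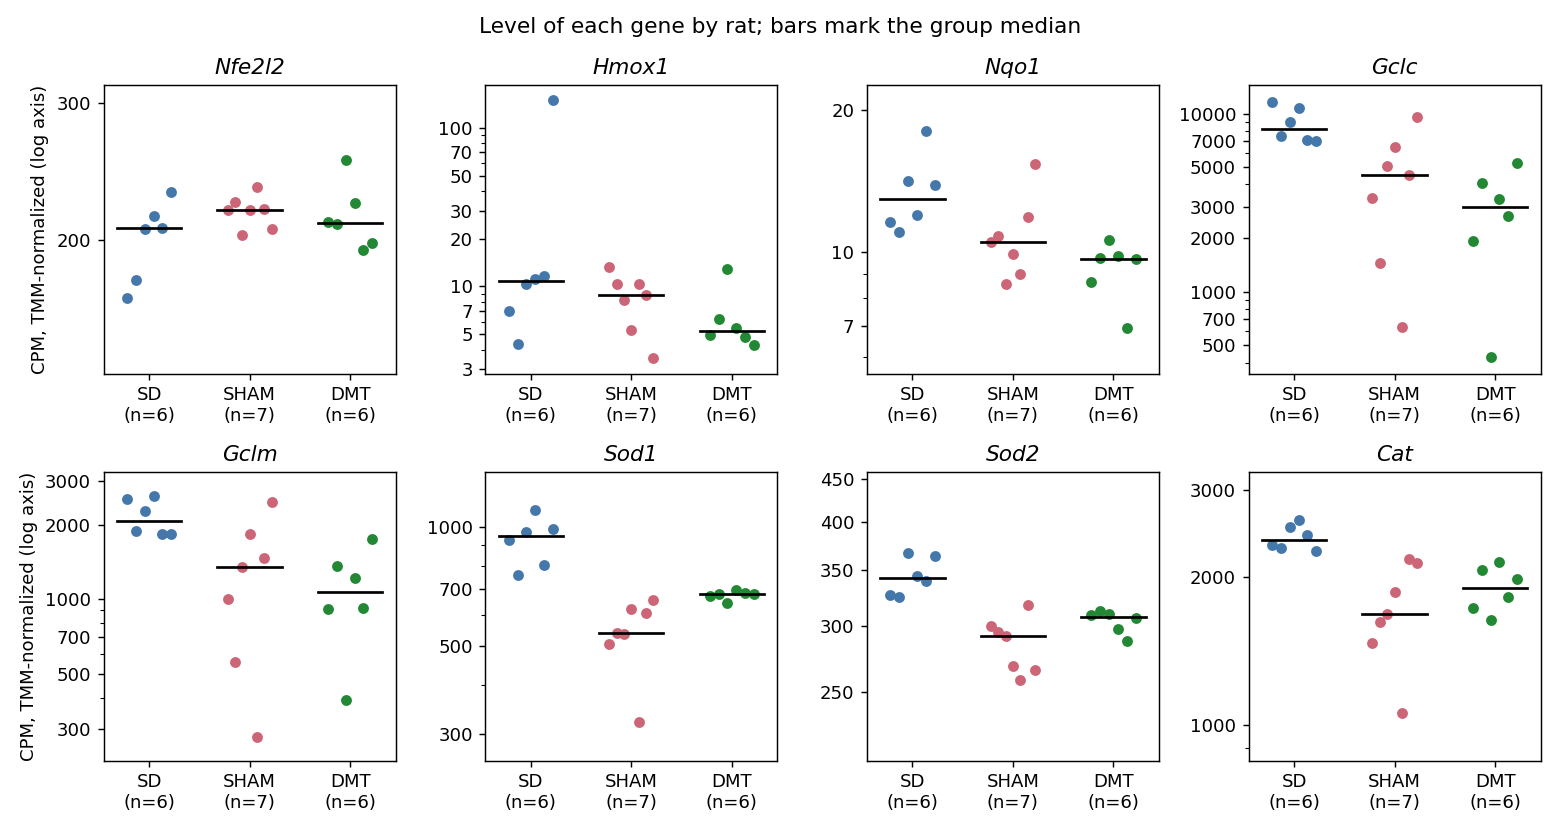
Level of each of the 8 genes in every rat, as CPM after TMM normalization on a log axis that differs between panels. Points are rats (6 SD, 7 SHAM, 6 DMT) and bars are group medians. Sod1, Sod2 and Cat were lower in every SHAM and every DMT rat than in any SD rat, and 1 SD rat had 149 CPM of Hmox1. With libraries scaled by their totals alone, this separation held for Sod1 but not for Sod2 or Cat.

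Levels were compared between genes per kilobase of exon, as mean RPKM over the 19 rats. Gclc was the most abundant at 1761 RPKM, 13th of the 14664 genes tested. Sod1 (1085 RPKM), Gclm (1008 RPKM) and Cat (816 RPKM) were also among the 51 most abundant genes. Sod2 had 150.2 RPKM and Nfe2l2 90.8 RPKM. Hmox1 and Nqo1, the classical inducible Nrf2 targets, were far lower at 9.96 and 7.68 RPKM, 7970th and 8924th. The Hmox1 mean rests on SD rat 357, and without that rat it was 5.15 RPKM, 10142nd and below Nqo1 at 7.58 RPKM. The spread between rats of one group also set the genes apart. The biological coefficient of variation was 0.763 for Hmox1, 0.591 for Gclc and 0.454 for Gclm, against 0.158 over all genes, and was 0.0777 for Sod2 and 0.0990 for Nfe2l2. The Hmox1 value includes rat 357, which lay 3.33 above its group mean on the log2 scale, while no other rat lay farther than 1.49 from its own. The biological coefficient is 1 value per gene, shared by the 3 groups. Within groups, the coefficient of variation of Gclc was 22.3% in SD, 68.2% in SHAM and 57.2% in DMT rats. That of Gclm was 16.6%, 58.4% and 42.5%.

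Nfe2l2 (ENSRNOG00000001548, rn5 chr3:69041647-69069072, minus strand, 5 exon blocks) was not called in any comparison. Its lowest, median and highest levels were 168, 207 and 231 CPM in SD, 203, 218 and 234 CPM in SHAM, and 194, 210.3 and 253 CPM in DMT. The 3 groups overlapped throughout, and the highest rat of all was DMT rat 328. The log2 fold-change was 0.12 in SHAM vs SD (95% interval -0.04 to 0.27, adjusted p=0.219), 0.10 in DMT vs SD (-0.06 to 0.25, adjusted p=0.333) and -0.02 in DMT vs SHAM (-0.17 to 0.13, adjusted p=0.897). All 3 intervals lay between -0.17 and 0.27. With libraries scaled by their totals alone, Nfe2l2 had a log2 fold-change of 0.25 in SHAM vs SD and passed the adjusted test (adjusted p=0.0119) below the fold threshold, while the median of all genes was 0.14 under that scaling.

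Hmox1 (ENSRNOG00000014117, rn5 chr19:25622556-25629372, plus strand, 5 exon blocks) encodes haem oxygenase-1, the inducible enzyme that degrades haem to biliverdin, iron and carbon monoxide. Levels were 4.32, 10.8 and 149 CPM (lowest, median, highest) in SD, 3.52, 8.81 and 13.2 CPM in SHAM, and 4.30, 5.21 and 12.9 CPM in DMT. Only SD rat 357 stood apart, with 2905 counts, while the other 5 SD rats lay between 4.32 and 11.6 CPM and overlapped with both other groups. Hmox1 was called lower in SHAM vs SD (log2 fold-change -1.90, SE 0.66, adjusted p=0.0323) and in DMT vs SD (-2.32, SE 0.71, adjusted p=0.0172). Without rat 357 these values were -0.05 (adjusted p=0.919) and -0.46 (adjusted p=0.302), and neither was called. The call in SHAM vs SD was also lost without SHAM rat 317 (adjusted p=0.0518), 321 (adjusted p=0.0546) or 340 (adjusted p=0.0508). Between DMT and SHAM rats the log2 fold-change was -0.42 (95% interval -1.86 to 1.02, adjusted p=0.716). Without rat 357, Hmox1 passed the test in none of the 3 comparisons.

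Nqo1 (ENSRNOG00000012772, rn5 chr19:49291903-49306795, plus strand, 6 exon blocks) encodes a quinone reductase that carries out reduction by a pair of electrons and so avoids semiquinone radicals. SD rats had 11.04, 12.9 and 18.1 CPM (lowest, median, highest), SHAM rats 8.57, 10.5 and 15.4 CPM, and DMT rats 6.91, 9.71 and 10.6 CPM. After TMM normalization every DMT rat was below every SD rat, and SHAM rats overlapped with both groups. By library totals alone, DMT rat 328 (10.95 CPM) was above SD rat 355 (10.83 CPM). Nqo1 was lower in DMT vs SD (log2 fold-change -0.54, SE 0.14, adjusted p=0.00670). In SHAM vs SD the log2 fold-change was -0.31 (SE 0.14, adjusted p=0.0860), and without SHAM rat 340, the highest of its group, it was -0.41 (adjusted p=0.0143) and called. In DMT vs SHAM it was -0.23 (95% interval -0.52 to 0.05, adjusted p=0.246).

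Gclc (ENSRNOG00000006302, rn5 chr8:84627768-84666185, plus strand, 16 exon blocks) and Gclm (ENSRNOG00000013409, rn5 chr2:243862903-243883273, plus strand, 7 exon blocks) encode the catalytic and modifier subunits of glutamate-cysteine ligase, the rate-limiting enzyme of glutathione synthesis. Gclc levels were 7055, 8245 and 11585 CPM (lowest, median, highest) in SD, 634, 4545 and 9545 CPM in SHAM, and 433, 2988 and 5278 CPM in DMT. All DMT rats were below all SD rats, whereas SHAM rats spread 15.1-fold from rat 333 to rat 340 and overlapped with both groups. Gclc took up to 1.12% of all counts in an SD library and as little as 0.0445% in DMT rat 328.

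Gclc was lower in DMT vs SD, with a log2 fold-change of -1.58 (SE 0.52, adjusted p=0.0258), or 3.00-fold. In SHAM vs SD the log2 fold-change was -0.99 (95% interval -2.01 to 0.04, adjusted p=0.123) and in DMT vs SHAM it was -0.60 (-1.63 to 0.44, adjusted p=0.425). The call in DMT vs SD was lost without DMT rat 316 (-1.49, adjusted p=0.0554) or SD rat 352 (-1.49, adjusted p=0.0507), although neither moved the fold-change much. Without SHAM rat 340, which lay within the SD range, Gclc was called in SHAM vs SD (-1.29, adjusted p=0.0444). DMT rat 328 and SHAM rat 333 had the lowest Gclc of their groups. Without both, an alternative chosen after seeing the data, the log2 fold-changes were -1.34 in DMT vs SD (adjusted p=0.00708), -0.78 in SHAM vs SD (adjusted p=0.0767) and -0.56 in DMT vs SHAM (adjusted p=0.281). With each rat left out in turn, Gclc in DMT vs SHAM ranged from -0.84 to -0.29, the latter without SHAM rat 340 (adjusted p=0.702).

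Gclm levels were 1829, 2074 and 2616 CPM (lowest, median, highest) in SD, 278, 1346 and 2464 CPM in SHAM, and 393, 1068 and 1756 CPM in DMT. As for Gclc, every DMT rat was below every SD rat and SHAM rats spread across both ranges, with the same SHAM and DMT rats at the ends. By library totals alone, however, Gclm in DMT rat 347 (1750 CPM) was above that in SD rat 357 (1705 CPM). Gclm did not pass the test in DMT vs SD (log2 fold-change -0.98, SE 0.39, adjusted p=0.0586), in SHAM vs SD (-0.76, SE 0.37, adjusted p=0.115) or in DMT vs SHAM (-0.23, SE 0.37, adjusted p=0.714). In DMT vs SD it was called without SHAM rat 333 (adjusted p=0.0194), DMT rat 347 (adjusted p=0.0356), SHAM rat 340 (adjusted p=0.0429) or SHAM rat 315 (adjusted p=0.0490), with log2 fold-changes between -1.17 and -0.98. It was also called by DESeq2 (adjusted p=0.0243) and with only the compared groups in the fit (adjusted p=0.0102). In SHAM vs SD it was called without SHAM rat 340 (-0.999, adjusted p=0.0353).

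**Figure D2:**
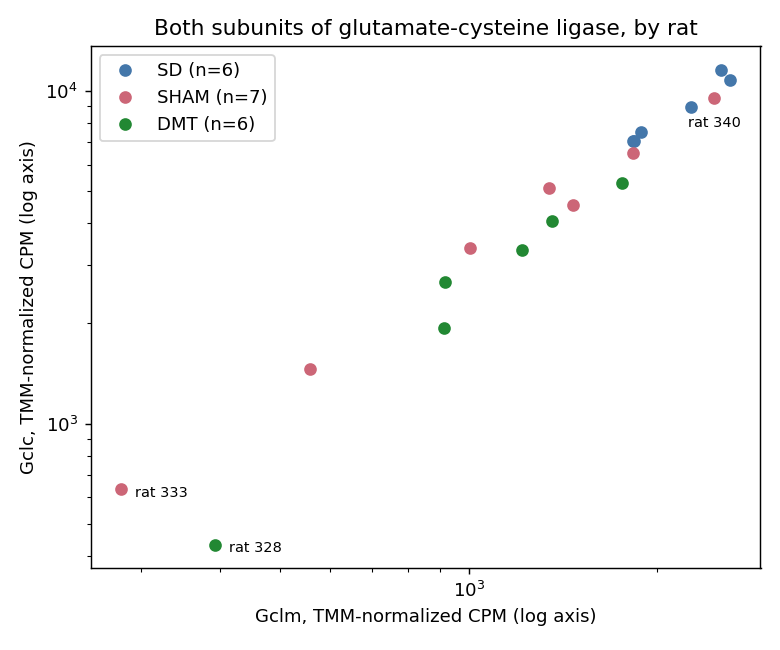
Gclc against Gclm in each of the 19 rats, as CPM after TMM normalization on log axes. Points are rats coloured by group. The rats lay along one line from the SD rats at the top right to SHAM rat 333 and DMT rat 328 at the bottom left, and SHAM rat 340 lay among the SD rats.

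The transcripts of both subunits varied together within each group. Pearson's r between Gclc and Gclm, as log2 CPM, was 0.98 in SD rats (n=6, exact permutation p=0.00972, adjusted p=0.0175), 0.997 in SHAM rats (n=7, exact permutation p=0.000397, adjusted p=0.00357) and 0.99 in DMT rats (n=6, exact permutation p=0.00139, adjusted p=0.00536). Spearman's rho was 0.94 (exact permutation p=0.0167), 0.96 (exact permutation p=0.00278) and 1 (exact permutation p=0.00278), with adjusted p=0.05, 0.0125 and 0.0125. After leaving out the 2 rats farthest from the median Gclc, r was 0.99, 0.98 and 0.91. The values of a rat share its library and total. p-values were two-sided and adjusted over 9 relations.

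Gclm was among the genes that followed Gclc most closely, but other genes ranked above it, so this relation was not particular to the pair. Over the 19 rats, as deviations from group means, r with Gclc was above 0.9 for 155 of the other 14663 genes (1.06%), and Gclm ranked 10th among them at 0.98. Between Gclc and Gclm, r was also 0.98 over the 16 rats other than 328, 333 and 357. Counts of genes above 0.9 were not computed over those 16 rats. The 3 genes outside the group most like Gclc were ENSRNOG00000010388 (r=0.99, rn5 chr4:240471781-240511228), ENSRNOG00000030894 (r=0.99, rn5 chr4:240560523-240596725) and ENSRNOG00000024903 (r=0.99, rn5 chr5:38439678-38460856). ENSRNOG00000010388 had a mean of 1386 CPM in SD, 726 CPM in SHAM and 564 CPM in DMT. For Gclm, 232 genes exceeded an r of 0.9, and the 3 most alike were ENSRNOG00000018964 (r=0.99, rn5 chr3:157443739-157474042), ENSRNOG00000039504 (r=0.99, rn5 chr14:18938045-18982052) and again ENSRNOG00000010388 (r=0.99). The files do not pair these identifiers with symbols.

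The mean ratio of the subunits followed the order of their mean levels. Per kilobase of exon, Gclc exceeded Gclm by a ratio of 1.98 ± 0.13 in SD (SD, n=6), 1.57 ± 0.29 in SHAM (SD, n=7) and 1.21 ± 0.37 in DMT (SD, n=6). Every DMT rat, at 0.538 to 1.47, was below every SD rat, at 1.88 to 2.23. SHAM rats, at 1.11 to 1.89, overlapped with both groups. The median ratio was 1.94 in SD, 1.64 in SHAM and 1.37 in DMT rats. In DMT rat 328 Gclm exceeded Gclc. These ratios were not tested.

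Since the subunits varied together, the bases before their transcription start sites are shown. The sequences are from RefSeq on build GRCr8, cover the 250 bases before the start on the plus strand, and mark in capitals any match to the antioxidant response element core TGACNNNGC on either strand.
Gclc (GRCr8 chr8:87510226-87510475): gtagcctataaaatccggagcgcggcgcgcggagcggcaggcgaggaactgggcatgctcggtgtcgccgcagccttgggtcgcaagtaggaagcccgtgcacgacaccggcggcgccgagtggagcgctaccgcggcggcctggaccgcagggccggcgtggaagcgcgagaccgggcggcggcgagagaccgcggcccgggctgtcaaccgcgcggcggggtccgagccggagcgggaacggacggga
Gclm (GRCr8 chr2:213031885-213032134): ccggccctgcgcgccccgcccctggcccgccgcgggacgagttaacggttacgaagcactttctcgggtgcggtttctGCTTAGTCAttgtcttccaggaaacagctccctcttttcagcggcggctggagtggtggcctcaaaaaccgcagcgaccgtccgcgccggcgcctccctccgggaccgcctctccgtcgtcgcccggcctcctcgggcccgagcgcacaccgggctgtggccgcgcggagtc
Gclm holds 1 match, in reverse orientation, and Gclc holds none in this window. From 250 bases before to 50 bases after the start, the core was found in 3 of the 7 members with a RefSeq promoter (Gclm, Sod2 and Nfe2l2) and in 12.1% of all 33469 promoters. The other 2 matches are shown with their flanks in the direction of transcription, both on the minus strand of that build.
Sod2 (GRCr8 chr1:50050185-50050213): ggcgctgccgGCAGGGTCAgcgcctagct
Nfe2l2 (GRCr8 chr3:81028950-81028971): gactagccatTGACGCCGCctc
The GC box GGGCGG was found in 6 of the 7 members, all but Cat, and in 33.1% of all promoters, again on either strand. A match is a description of letters and not a site of binding.

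Sod1 (ENSRNOG00000002115, rn5 chr11:33982764-33988340, plus strand, 5 exon blocks) encodes the copper-zinc superoxide dismutase of the cytosol. Levels were 755, 951 and 1106 CPM (lowest, median, highest) in SD, 321, 539.8 and 655 CPM in SHAM, and 642, 679 and 695 CPM in DMT. Every SHAM and every DMT rat was below every SD rat. After TMM normalization, SHAM rat 340 alone among SHAM rats exceeded the lowest DMT rat, 328. Sod1 was lower in SHAM vs SD (log2 fold-change -0.78, SE 0.12, adjusted p=0.000128, 1.71-fold) and in DMT vs SD (-0.46, SE 0.13, adjusted p=0.00954, 1.37-fold).

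Between DMT and SHAM rats Sod1 had a log2 fold-change of 0.32 (95% interval 0.06 to 0.57, unadjusted p=0.0172, adjusted p=0.0712), and it was the only one of the 8 genes with an unadjusted p under 0.05. It did not pass the adjusted test. An exact two-sided permutation test of log2 CPM in these rats gave p=0.00641, unadjusted and 1 of 24 such tests. When each rat was left out in turn, the adjusted p ranged from 0.0361 to 0.116. Without SHAM rat 340 it was 0.0361, yet the fold-change of 0.37 on the log2 scale stayed under the threshold of 1.3-fold. The coefficient of variation of Sod1 was 2.65% in DMT rats, 20.4% in SHAM rats and 13.9% in SD rats. Without SHAM rat 333, left out after seeing the data, it was 10.01% in the other 6 SHAM rats, so the order of SHAM and SD rests on that rat.

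Sod2 (ENSRNOG00000019048, rn5 chr1:51827380-51834230, plus strand, 5 exon blocks) encodes the manganese superoxide dismutase of the mitochondrial matrix. SD rats had 325, 342 and 367 CPM (lowest, median, highest), SHAM rats 259, 292 and 318 CPM, and DMT rats 288, 308 and 313 CPM. After TMM normalization all SHAM and all DMT rats were below all SD rats, and SHAM and DMT rats overlapped. By library totals alone, SHAM rat 334 (319.5 CPM) and DMT rat 328 (318.9 CPM) were above SD rat 355 (311.2 CPM). Sod2 passed the adjusted test in SHAM vs SD (log2 fold-change -0.27, SE 0.05, adjusted p=0.000673) and in DMT vs SD (-0.18, SE 0.05, adjusted p=0.0148), but at 1.21-fold and 1.13-fold it was not called. Between DMT and SHAM rats, Sod2 had a log2 fold-change of 0.09 (95% interval -0.02 to 0.20, adjusted p=0.229).

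Cat (ENSRNOG00000008364, rn5 chr3:100021859-100053940, minus strand, 13 exon blocks) encodes catalase, which removes hydrogen peroxide in peroxisomes. One gene overlaps it on the other strand, and counting was specific to strand. Levels were 2257, 2374 and 2611 CPM (lowest, median, highest) in SD, 1061, 1678 and 2177 CPM in SHAM, and 1633, 1898 and 2140 CPM in DMT. After TMM normalization the highest SHAM rat and the highest DMT rat were both below the lowest SD rat. By library totals alone, SHAM rat 334 (2189 CPM) and DMT rat 329 (2135 CPM) were above SD rat 357 (2105 CPM). Cat was lower in SHAM vs SD (log2 fold-change -0.49, SE 0.13, adjusted p=0.00585, 1.40-fold). In DMT vs SD it passed the adjusted test at -0.34 (SE 0.13, adjusted p=0.0495), and at 1.27-fold was not called, while without DMT rat 329 it was (-0.38, adjusted p=0.0471). With each rat left out in turn, the adjusted p of Cat in DMT vs SD ranged from 0.00916 to 0.106. Between DMT and SHAM rats, Cat had a log2 fold-change of 0.14 (95% interval -0.12 to 0.41, adjusted p=0.453).

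**Figure D3:**
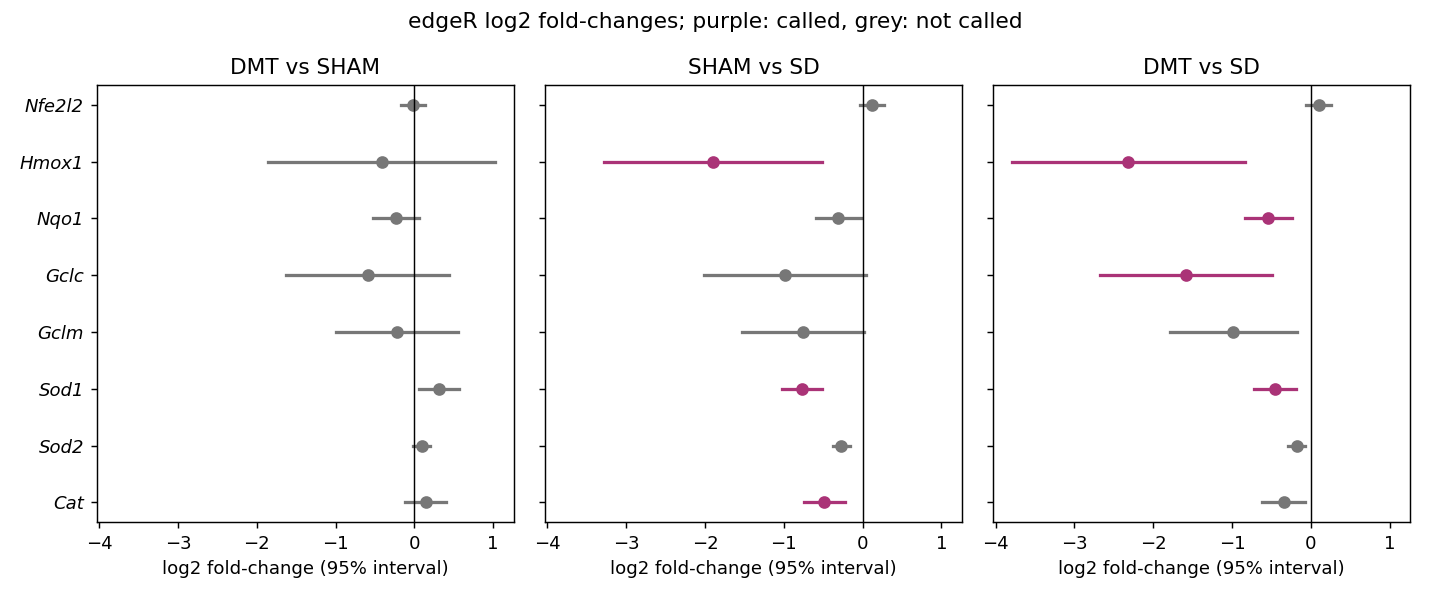
Log2 fold-change of the 8 genes in the 3 comparisons (one per panel), from one edgeR fit of 19 rats. Points are estimates and lines are 95% intervals, purple where the gene was called and grey where it was not. The intervals for Hmox1, Gclc and Gclm are the widest, and those for Sod2 and Nfe2l2 the narrowest.

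Across the group, the median log2 fold-change was -0.62 (SHAM vs SD), -0.50 (DMT vs SD) and -0.12 (DMT vs SHAM), while the medians over all genes tested were between -0.00404 and 0.00783. With each rat left out in turn, the median of the 8 genes ranged from -0.69 to -0.40 in SHAM vs SD, the latter without SD rat 357, and from -0.55 to -0.45 relative to SD in DMT rats. Between DMT and SHAM rats it ranged from -0.14 to -0.00684, and was -0.00684 without SHAM rat 340, -0.06 without DMT rat 328, and -0.07 without SHAM rat 321 or DMT rat 341. By adjusted p alone, 4 of the 8 genes were lower in SHAM vs SD (Hmox1, Sod1, Sod2 and Cat), against 17.9% of all genes, and 6 in DMT vs SD (those 4 with Nqo1 and Gclc), against 16.5%. All SHAM rats were below all SD rats for 3 genes (Sod1, Sod2 and Cat), against 4.57% of all genes. All DMT rats were below all SD rats for 6 genes (all but Hmox1 and Nfe2l2), against 8.97%. These comparisons of rats use TMM-normalized CPM. With libraries scaled by their totals alone, DMT and SD rats overlapped for Nqo1, Gclm, Sod2 and Cat. SHAM and SD rats then overlapped for Sod2 and Cat. Sod1 in SHAM and DMT rats, and Gclc in DMT rats, stayed below all SD rats. The shares of all genes were not computed under that scaling. In DMT vs SHAM, rats overlapped for all 8 genes after TMM normalization. Since only 7.72% of all genes did not overlap in one direction or the other, this does not set the 8 genes apart. By library totals alone, Sod1 in DMT rat 328 (659.9 CPM), the lowest of its group, was just above SHAM rat 340 (658.7 CPM), the highest. 

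**Figure D4:**
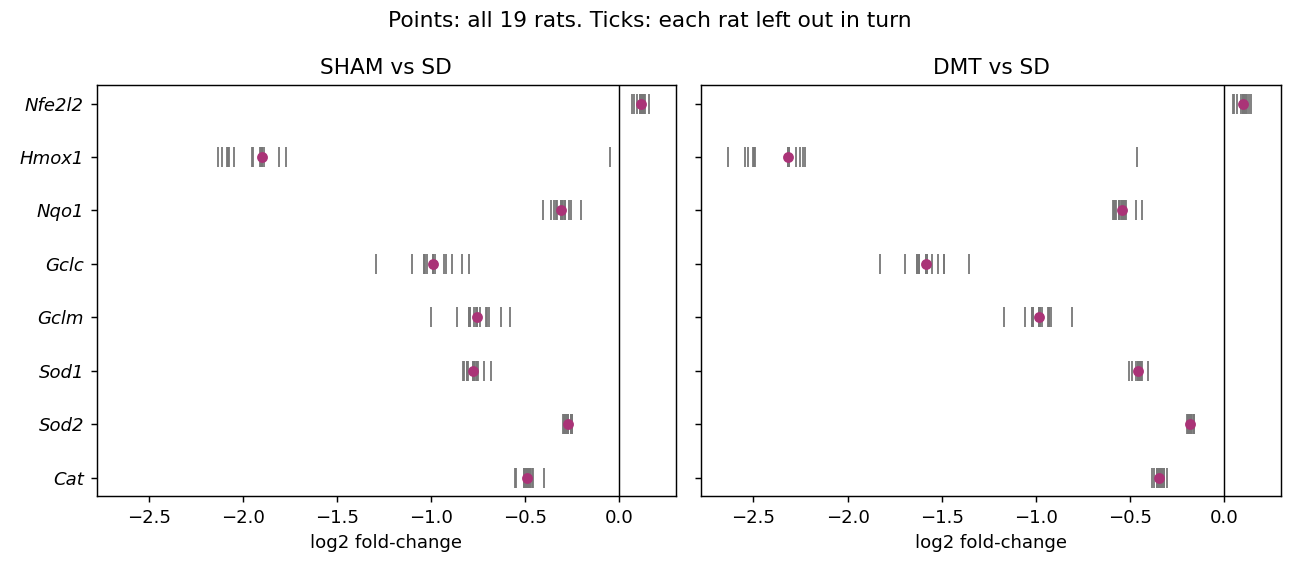
Log2 fold-change of the 8 genes relative to SD, for SHAM (left) and DMT (right), with all 19 rats (points) and with each rat left out in turn (ticks). Hmox1 moved to -0.05 and -0.46 without SD rat 357, while Sod1, Sod2 and Cat stayed within narrow ranges below 0.

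Sod1 and Cat act in succession on superoxide and hydrogen peroxide. By Pearson's r, but not by Spearman's rho after adjustment, they also varied together in SHAM and in DMT rats. Pearson's r was 0.95 in SHAM rats (n=7, exact permutation p=0.00179, adjusted p=0.00536), 0.85 in DMT rats (n=6, exact permutation p=0.00694, adjusted p=0.0156) and 0.51 in SD rats (n=6, exact permutation p=0.300, adjusted p=0.338). Spearman's rho was 0.86 (exact permutation p=0.0238, adjusted p=0.0536), 0.83 (exact permutation p=0.0583, adjusted p=0.0994) and 0.37 (exact permutation p=0.497, adjusted p=0.497). Without the 2 rats farthest from the median Sod1, r was 0.88, 0.69 and 0.69. The difference between groups in r was not tested. This relation was not particular to the pair either. Over the 19 rats, as deviations from group means, Cat ranked 534th of 14663 genes most like Sod1, and 159 genes had an r with Sod1 above 0.9. Between Sod1 and Cat this r was 0.84, and it was 0.65 over the 16 rats other than 328, 333 and 357. The count of genes above 0.9 was not computed over those 16 rats.

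Nfe2l2 did not rise and fall with Gclc. Their r was -0.83 in SHAM rats (n=7, exact permutation p=0.0212, adjusted p=0.0318), -0.82 in DMT rats (n=6, exact permutation p=0.0694, adjusted p=0.0893) and -0.41 in SD rats (n=6, exact permutation p=0.399, adjusted p=0.399). Spearman's rho was -0.75 (exact permutation p=0.0663, adjusted p=0.0994), -0.54 (exact permutation p=0.297, adjusted p=0.334) and -0.60 (exact permutation p=0.242, adjusted p=0.311). Without the 2 rats farthest from the median Nfe2l2, r was -0.83, -0.47 and -0.28. Among the 8 genes, Hmox1 was the one most like Nfe2l2, with r=0.70 between deviations from group means over 19 rats and 0.59 over the 16 rats other than 328, 333 and 357.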

How the data were processed

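Renal cortical RNA-seq of 21 rats was analysed. The authors deposited raw counts of fragments per Ensembl gene. Per the processing notes, methods and file headers, reads were trimmed (Trim Galore), aligned to rn5 (STAR) and assigned to exons as pairs, reverse-stranded, by featureCounts (1.6.4). Fragments shared by several positions or genes are lost, which lowers the values of genes with close copies.

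From these counts, 2 libraries under 1000000 counts were left out. Genes passed filterByExpr at its defaults (10 counts, total of 15). The other 19 libraries were normalized by TMM and fitted together with the quasi-likelihood model of edgeR 4.0.16 in R 4.3.3, which was also tested on simulated counts. Benjamini-Hochberg adjustment covered all 14664 genes. Standard errors were derived from the F statistic, and permutation tests used log2(CPM + 1). Correlations and figures were made in Python (3.11.15) with scipy (1.17.1) and matplotlib (3.10.9).

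The 8 genes, lists and tests were chosen with earlier results of these data known. The genes named were these 8, and for Gclc and Gclm the 3 genes most alike by correlation of deviations from group means. Since 0 identifiers matched a symbol through the reference gene table, other Nrf2 targets and regulators, other peroxide and superoxide enzymes, haem and iron genes, superoxide producers, peroxisomal genes and cell type markers were not analysed here. Alternatives were DESeq2 (1.42.0), its size factors, library totals, other filters, other sets of libraries including all 21, other fold-change rules, omission of the 10 genes with the most counts, and omission of each rat in turn. Intervals on counts cover counting error only.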

Additional observations from a re-analysis of the deposited data

Results flagged for a closer look

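In 24 groups of rats (8 genes in 3 groups) the highest or lowest rat was compared with the range of its group by Dixon's criterion, which marks about 1 in 20 groups by chance. Both rats marked were the highest for Hmox1. In SD, rat 357 had 149 CPM, and its gap to the next rat was 0.950 of the range. Among DMT rats, rat 328 had 12.9 CPM, with a gap of 0.771 of the range. Rat 328 also had the lowest Gclc, Gclm, Sod1 and Cat of the DMT rats and the highest Nfe2l2 and Nqo1.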

How the results depend on the processing

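Of the log2 fold-changes of the 8 genes fitted under each alternative, 679 kept their direction and their side of the threshold, 16 were no longer called, 15 became called and 4 changed sign. The sign changes were in DMT vs SHAM, when 1 rat was left out, and no call was involved. Nfe2l2 ranged from -0.0695 to 0.0171 and was above 0 without DMT rat 341 (0.0171), DMT rat 347 (0.00475) or SHAM rat 333 (0.00660). Gclm ranged from -0.412 to 0.0161, the latter without SHAM rat 340. The cause was not tested. Leaving out each rat in turn gave between 2 and 5 calls in SHAM vs SD, between 3 and 5 in DMT vs SD, and 0 in each case in DMT vs SHAM. The 5 in SHAM vs SD were without SHAM rat 340 (Nqo1, Gclc, Gclm, Sod1 and Cat).

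When the fold-change of 1.3 was tested within the model, 1 gene was called in SHAM vs SD (Sod1, adjusted p=0.0125) and 0 in DMT vs SD, and the counts over all genes were 810 (SHAM vs SD), 1091 (DMT vs SD) and 461 (DMT vs SHAM), in place of 2681, 2663 and 1684. Without a fold-change threshold, these counts were 5131, 4682 and 2975. DESeq2 gave no adjusted p for Hmox1. In the other 7 genes it called 0 between DMT and SHAM rats, Sod1 and Cat in SHAM vs SD, and Nqo1, Gclc, Gclm and Sod1 in DMT vs SD. Scaling by library totals shifted the median log2 fold-change of all genes by 0.13 in SHAM vs SD and 0.08 in DMT vs SD. The share of all genes called lower was then 5.08% and 8.06%, from 3229 and 2779 calls in all, in place of 7.95% and 10.2%. Under it, Cat in SHAM vs SD (-0.37) and Sod1 in DMT vs SD (-0.38) fell short of the fold threshold. Nfe2l2 in SHAM vs SD (0.25, adjusted p=0.0119) then passed the adjusted test without being called, Sod2 moved to -0.14 in SHAM vs SD (adjusted p=0.0186), and in DMT vs SD 4 of the 8 genes passed by adjusted p alone in place of 6. With only the compared groups in the fit, Hmox1 was not called in SHAM vs SD (adjusted p=0.0700). By the exact permutation test, unadjusted, Hmox1 differed neither in SHAM vs SD (p=0.357) nor in DMT vs SD (p=0.106), while Gclc (p=0.0169) and Gclm (p=0.0268) passed 0.05 in SHAM vs SD. Without the 10 genes with the most counts, which include Gclc itself, 7 members were tested and Gclc could not be.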

Other observations

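SHAM rats 343 and 348, left out for their depth, were compared with the other 7 SHAM rats as CPM by library total. Both lay within the range of those rats for Gclc, Gclm, Sod1 and Cat, but not for Sod2 or Nfe2l2. Gclc was 5958 CPM (95% exact Poisson interval 5532 to 6409) and 4924 CPM (4502 to 5376), and Gclm was 1374 CPM (1174 to 1599) and 1162 CPM (962 to 1392). Sod1 was 535 CPM (413 to 682) and 473 CPM (349 to 627), and Cat was 1811 CPM (1579 to 2066) and 1921 CPM (1660.4 to 2210). Sod2 was 279.8 CPM (194 to 391) and 266 CPM (175 to 387). The latter was just below the 267 to 319 CPM of the other SHAM rats, with an interval that includes that range. Nfe2l2 was 181 CPM (113 to 274) and 276 CPM (183 to 399). These were below and above the 207 to 263 CPM of the other SHAM rats, with intervals that include that range. Hmox1 had 4 counts in rat 343 (32.9 CPM, 95% exact Poisson interval 8.97 to 84.3) and 0 in rat 348, and Nqo1 had 0 and 1. That interval overlaps the 3.54 to 13.9 CPM of Hmox1 in the other SHAM rats. At these totals 3 counts equal 24.7 and 29.5 CPM, above the level of either gene in all other SHAM rats. Levels like theirs could not be measured at this depth.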
